A study of Mus musculus with 16 samples.

Results

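The genes described here detect DNA double-strand breaks and stalled replication forks, pass that signal to the cell cycle, or join broken ends without a template. They were chosen by name for these roles, with earlier results of these data known, as 32 of the 22375 genes in the deposited tables. Each had 1 entry. All 32 passed the filter on low counts and were tested. They fall into 4 groups, which are 6 genes that mark breaks on chromatin in the ATM arm, 10 genes of the ATR arm and fork protection, 7 checkpoint kinases and their targets, and 9 end-joining genes.

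Total RNA depleted of ribosomal RNA was sequenced from mouse embryonic stem (ES) cells of strain 129/OLA grown in serum and LIF. WT cells were the E14TG2a line and Cfp1-/- cells lack Cfp1, the product of Cxxc1, which binds unmethylated CpG and belongs to the Set1 complexes that methylate histone H3. Each line was left untreated or was given doxorubicin, a topoisomerase II poison that causes double-strand breaks, for 6 hours. The deposited treatment protocol and the study's methods give the dose as 1 μM, whereas the treatment label of the treated samples gives 1 mM. The 16 deposited samples are 2 technical replicates of 2 biological replicates in each of the 4 groups, and technical replicates were summed, so n = 2 per group. Each genotype is represented by 1 line, so the effect of Cfp1 loss and other differences between the lines cannot be told apart.

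The libraries held between 14880589 and 29422711 counts. Cxxc1 had 616 to 1412 raw counts in the 4 WT libraries and 1 to 5 in the 4 Cfp1-/- libraries. All 10 ES cell markers examined were present, and 9 of them fell in both lines. Summed markers of other cell types were below the 31398 to 112107 normalized counts per library of the ES cell markers, but some moved with line and treatment. The 3 trophectoderm markers summed to 919 to 2451 in untreated and 697 to 2183 in treated WT libraries, against 143 to 213 and 135 to 170 in Cfp1-/- libraries, most of it Krt8, while Cdx2 was at most at 3 counts in every treated library. The 2 neuroectoderm markers found of 3 summed to 739 to 1761 in untreated and 30.6 to 79.9 in treated WT libraries, and to 91.3 to 109 and 24.5 to 25.1 in Cfp1-/- libraries. Neurog2 had at most 3 counts in every untreated library, so that the untreated sums were nearly all Pax6. The 7 fibroblast markers summed to 245 to 257 in untreated and 421 to 569.8 in treated WT libraries, and to 129 to 135 and 394 to 544 in Cfp1-/- libraries, with Lum at 3 counts or fewer throughout and Col3a1 in Cfp1-/- cells. The 5 endoderm markers summed to 25 to 100.1 and the 3 mesoderm markers to 68.4 to 342 over all libraries. The part of these markers in the values of the 32 genes was not tested. In the second technical replicate of treated Cfp1-/- replicate 1, 209 of 291 chromosome 19 genes with at least 200 counts in its first technical replicate had 0 counts, as did 225 of 280 on chromosome X and 5 of 5 on chromosome Y. Poll and Rad9 are the members on chromosome 19, and their values are given below with and without that run. With bulk RNA, fewer cells that express a gene and less RNA of it per cell cannot be told apart.

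Cells answer broken DNA through a pair of related kinases. ATM is activated at double-strand breaks. The chromatin around a break is marked in turn by histone H2AX phosphorylation, Mdc1, the ubiquitin ligases Rnf8 and Rnf168, the reader Trp53bp1, and Rif1. ATR, held on single-stranded DNA by Atrip, is activated by Topbp1 once the ring of Rad9, Rad1 and Hus1 has been loaded by Rad17. Chek1 and Chek2 carry these signals to the Cdc25 phosphatases, which remove the inhibitory phosphates that Wee1 puts on cyclin-dependent kinases. Ends are rejoined by the Ku pair Xrcc5 and Xrcc6, the kinase Prkdc, the nuclease Dclre1c, the polymerases Poll and Polm, and the ligase complex of Lig4, Xrcc4 and Nhej1. Most of this control acts on the proteins, through phosphorylation and ubiquitin, so RNA levels describe the supply of parts and not their activity.

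In untreated WT cells the level per kilobase of exon ran from 6362 normalized counts for Tipin to 32.4 for Polm, against a median of 92.3 over all tested genes. A normalized count is the authors' count divided by a size factor for the library. Behind Tipin, a fork protection gene, came Rif1 at 5247, Topbp1 at 2299 and Xrcc5 at 1994 normalized counts per kilobase, and the replicates of these 4 genes did not overlap. Cdc25a, Rad17, Rnf168, Wee1 and Chek2 followed at 827 to 703, and each overlapped its neighbour in this order. The end-joining genes ran from Xrcc5 down to Nhej1 at 106, Poll at 75.9, Dclre1c at 52.3 and Polm. Chromosome 9 carries 7 of the 32 genes, namely Atm, Atr, Atrip, Topbp1, Tipin, Chek1 and Cdc25a.

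Promoters of 25 of the 32 genes were matched by symbol in the RefSeq table of build GRCm38.p6, which gives the 250 bases before and the 50 bases after each start, and 7 genes had no entry there, namely Rif1, Rad9, Tipin, Wee1, Cdc25c, Prkdc and Poll. The E2F core, written here as GGCGGGAA or GGCGCGAA and sought on both strands, was in the promoters of 6 of the 25 genes (Mdc1, Rnf8, Rnf168, Topbp1, Clspn and Chek1) and in 2.7% of all 32851 promoters of that length. E2F factors are known to act on genes of S phase. The letters TTTGAA of the cell cycle homology region (CHR) were in 2 of the 25, Hus1 and Rnf8, against 17.9% of all promoters, and CCAAT in 12 of the 25 against 37.4%. No promoter of the 25 genes held a match to the p53 half-site, against 8.36% of all. Overlap between matches of different motifs was not checked, and a match describes the sequence alone. Rnf8 and Clspn, which have the core, fell in neither line. Atm, Trp53bp1, Atr, Hus1, Rad17, Timeless, Cdc25a, Xrcc4, Xrcc5 and Xrcc6, which lack it, fell in at least 1 line. Whether the core goes with the response was not tested. The 4 promoters below are those of genes with an E2F core that fell in at least 1 line, with that core in capitals. Nhej1, the end-joining gene with the largest rise, stands last as one without it.
Rnf168, chr16:32277211-32277510, + strand, core from base -37: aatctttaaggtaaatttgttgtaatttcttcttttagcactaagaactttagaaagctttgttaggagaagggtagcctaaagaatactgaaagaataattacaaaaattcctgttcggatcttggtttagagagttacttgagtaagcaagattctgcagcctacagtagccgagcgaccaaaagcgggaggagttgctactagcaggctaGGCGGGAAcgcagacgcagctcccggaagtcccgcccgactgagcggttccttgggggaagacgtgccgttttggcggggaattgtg
Mdc1, chr17:35841248-35841547, + strand, core from base -15: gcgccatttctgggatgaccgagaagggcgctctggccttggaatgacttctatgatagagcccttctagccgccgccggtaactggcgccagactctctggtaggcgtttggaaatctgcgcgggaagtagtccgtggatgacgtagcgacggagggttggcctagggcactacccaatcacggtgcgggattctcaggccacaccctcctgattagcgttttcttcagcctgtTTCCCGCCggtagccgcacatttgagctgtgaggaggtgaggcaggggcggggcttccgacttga
Topbp1, chr9:103305077-103305376, + strand, core from base -130: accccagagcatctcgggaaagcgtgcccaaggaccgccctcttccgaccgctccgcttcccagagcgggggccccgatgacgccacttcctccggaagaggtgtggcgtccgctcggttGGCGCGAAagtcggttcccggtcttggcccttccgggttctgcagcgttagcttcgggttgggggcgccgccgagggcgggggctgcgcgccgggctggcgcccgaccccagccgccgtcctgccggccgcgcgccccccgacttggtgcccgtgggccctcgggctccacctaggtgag
Chek1, chr9:36726609-36726908, - strand, core from base 43: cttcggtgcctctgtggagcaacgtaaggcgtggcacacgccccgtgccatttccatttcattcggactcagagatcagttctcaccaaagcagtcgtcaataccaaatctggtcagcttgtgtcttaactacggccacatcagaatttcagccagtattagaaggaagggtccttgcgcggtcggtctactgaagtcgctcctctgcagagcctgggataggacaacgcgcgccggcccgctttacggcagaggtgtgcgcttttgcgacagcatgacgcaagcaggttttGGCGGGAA
Nhej1, chr1:75125177-75125476, - strand, no core: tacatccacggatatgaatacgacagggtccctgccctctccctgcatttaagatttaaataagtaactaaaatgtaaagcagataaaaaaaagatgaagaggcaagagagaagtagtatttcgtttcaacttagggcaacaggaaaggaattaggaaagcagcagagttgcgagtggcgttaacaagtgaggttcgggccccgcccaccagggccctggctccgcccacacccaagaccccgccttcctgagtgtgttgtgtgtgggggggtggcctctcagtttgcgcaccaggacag
Bases are counted from the start of transcription, and Mdc1 carries the core on the opposite strand.

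Doxorubicin lowered more of these genes than it raised, in both lines. A gene is said to have risen or fallen where its p-value in the quasi-likelihood test of edgeR, adjusted over all tested genes, was under 0.05. That test had no term for the replicate number. In WT cells 14 of 32 members fell and 3 rose, against 21.8% lower and 26.5% higher among all 15758 tested genes. In Cfp1-/- cells 15 fell and 2 rose, against 21.0% lower and 27.8% higher. These shares of all genes were not matched for untreated level, which went with lower fold changes over all genes, as given below. Over the members the log2 fold change had a median of -0.23 in WT cells and -0.33 in Cfp1-/- cells, where all tested genes had medians of 0.06 and 0.01. In both lines 11 genes fell (Atm, Rnf168, Rif1, Topbp1, Hus1, Rad17, Tipin, Chek1, Wee1, Xrcc4 and Xrcc5), Nhej1 and Poll rose in both, and 11 passed the test in neither. The response differed between the lines for none of the 32 in edgeR's test, against 0.235% of all genes, and for none in DESeq2. With the replicate number as a block it differed for 1, Mdc1, and the share of all genes under the block is not given. With limits of 2.5 on the fold change and 200 on the mean normalized count added, 2 members were called in WT cells, Rif1 and Wee1, and 2 in Cfp1-/- cells, Wee1 and Nhej1, against 7.91% and 7.61% of all genes. Scaling by total counts raised the median log2 fold change of all genes by 0.31 in WT and 0.21 in Cfp1-/- cells. It turned the splits to 8 lower and 5 higher in each line, for which the shares of all genes are not given. On that scale the members' median was 0.09 in WT cells, below the 0.37 of all genes, and -0.12 in Cfp1-/- cells, below 0.23. It ended the calls of Atm, Rnf168, Tipin, Chek1, Xrcc5 and Xrcc6 in WT cells (adjusted p = 0.0917 to 0.554) and of Atm, Rnf168, Topbp1, Timeless, Tipin, Cdc25a and Xrcc5 in Cfp1-/- cells (0.142 to 0.325). The calls of Rif1, Wee1, Hus1, Rad17 and Nhej1 held in both lines under every alternative run, with any 1 library left out included.

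**Figure D1:**
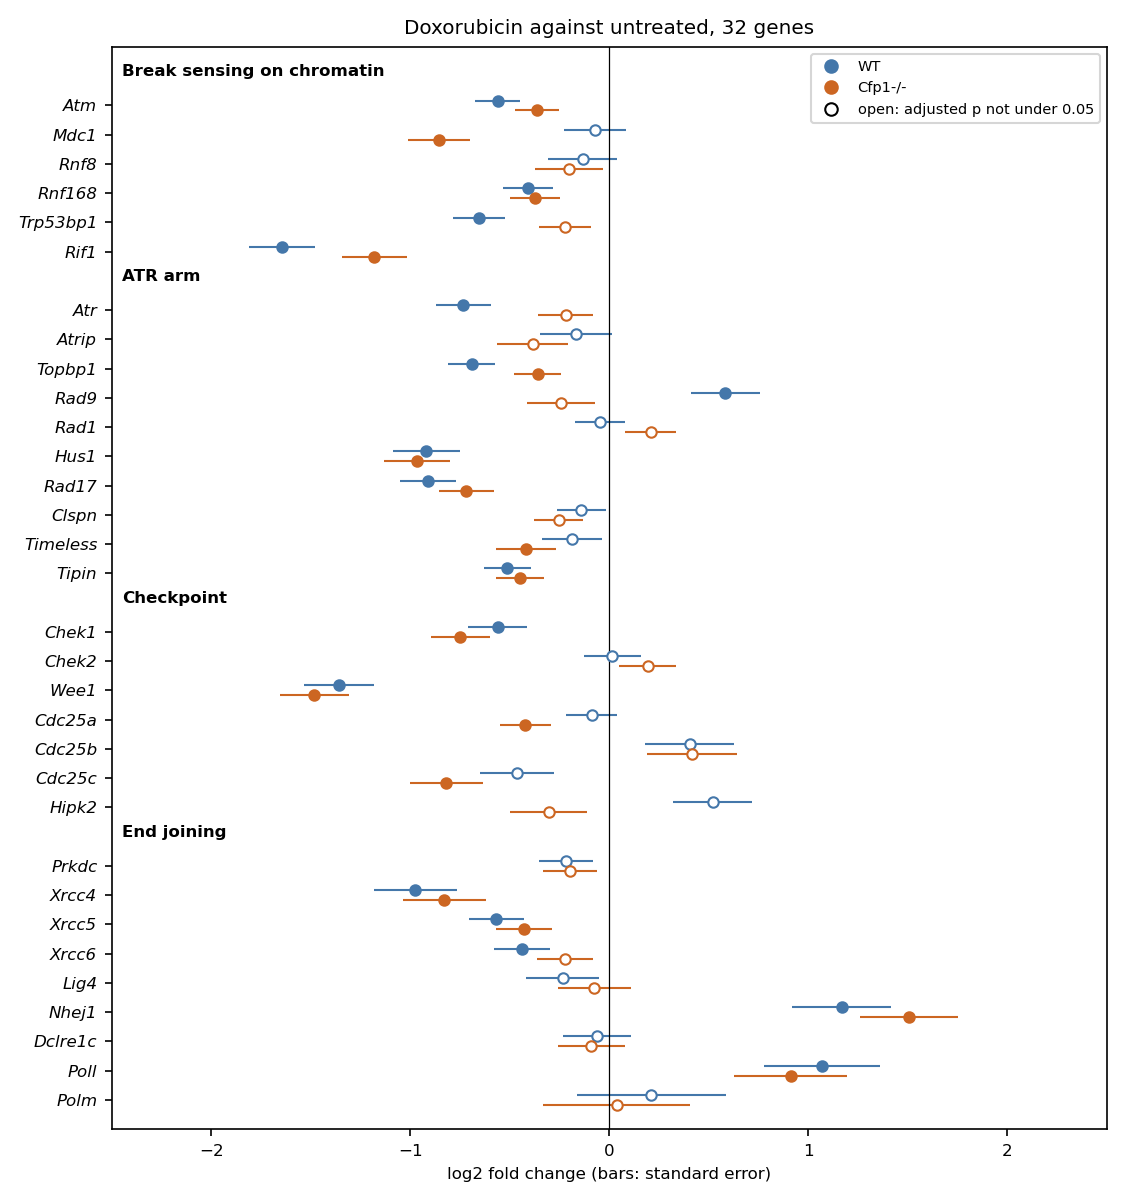
Log2 fold change of doxorubicin against untreated cells (x axis) for each of the 32 genes (y axis, by role), with WT cells in blue, Cfp1-/- cells in orange and standard errors as bars. Filled points have an adjusted p under 0.05, and most filled points lie left of 0, with Rif1 and Wee1 farthest left and Nhej1 farthest right.

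Genes that mark breaks on chromatin fell or were not called, and none rose. Of the 6, 4 fell in WT cells (Atm, Rnf168, Trp53bp1 and Rif1) and 4 in Cfp1-/- cells (Atm, Mdc1, Rnf168 and Rif1). That is 66.7% in each line, against 21.8% of all genes in WT and 21.0% in Cfp1-/- cells. Of all genes 26.5% and 27.8% rose. The medians of the group were -0.49 and -0.37. Rif1, which shields broken ends from resection, had the lowest fold changes of the group, and the gene (ENSMUSG00000036202) lies on chromosome 2 from 51928357 to 51977903 in the NCBIm37 build that all gene positions here refer to. Its normalized counts went from 58539.9 and 51931 without to 18513 and 15735 with doxorubicin in WT cells, and from 50226 and 45415 to 23126 and 17819.7 in Cfp1-/- cells. No treated library overlapped an untreated one, and the log2 fold changes were -1.64 (SE 0.167, adjusted p = 5.38e-05 from edgeR) and -1.18 (SE 0.165, adjusted p = 0.000366).

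Atm, the kinase at the head of this arm, was at 6513 and 6579 normalized counts in untreated and 4346 and 4241 in treated WT cells. In Cfp1-/- cells it was at 7880.2 and 7747 and fell to 5770.1 and 6031, so that every Cfp1-/- library lay above the WT libraries of the same treatment. The log2 fold changes were -0.56 and -0.36 (SE 0.111 in both, adjusted p = 0.00251 and 0.0219 from edgeR). Rnf168, which spreads ubiquitin on histone H2A, was at 3641 and 3286 against 2482 and 2569 in WT cells and at 2127 and 2292 against 1744 and 1568 in Cfp1-/- cells. The 4 groups of Rnf168 did not overlap, and its responses were -0.41 and -0.37 on the log2 scale (adjusted p = 0.0224 and 0.0335 from edgeR). Trp53bp1, the reader that favours end joining, was at 5854 and 6073 normalized counts in untreated and 3936 and 3395 in treated WT cells. In Cfp1-/- cells it stood at 3449.7 and 3063 without and 2752 and 2664 with doxorubicin, each below both WT libraries of the same treatment. It changed by -0.66 on the log2 scale in WT cells (adjusted p = 0.00245 from edgeR) and -0.22 in Cfp1-/- cells (adjusted p = 0.18).

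Mdc1, the scaffold that binds phosphorylated H2AX (chromosome 17, 35978460 to 35996615), was the 1 member whose response differed between the lines in the fit with the replicate block. WT libraries held 3856 and 3412 normalized counts untreated and 3809 and 2882 treated, which overlapped, whereas Cfp1-/- libraries held 5055 and 4559 untreated and 2645 and 2518 treated. The change of Mdc1 was -0.07 on the log2 scale in WT (SE 0.155, adjusted p = 0.72 from edgeR) and -0.85 in Cfp1-/- cells (SE 0.156, adjusted p = 0.00161). The Cfp1-/- response was lower than the WT response by a log2 difference of -0.78 (SE 0.219), which had an adjusted p of 0.244 in edgeR and 0.0421 with the replicate block. Rnf8, the first ubiquitin ligase of the cascade and the member of this group that moved least, held 1102 and 1084 and 1057 and 871 normalized counts in untreated and treated WT libraries and 1072 and 907 and 923 and 744 in Cfp1-/- libraries. It was not called in either line, and 41.6% of its exon bases lie on the same strand as exons of Ftsjd2, where reads are not counted for either gene. Without 1 library the call of Rnf168 was lost in WT cells for either treated replicate or untreated replicate 1 (adjusted p = 0.0593 to 0.148) and in Cfp1-/- cells for treated replicate 2 or either untreated replicate (0.0557 to 0.182). That of Atm in Cfp1-/- cells was lost without any 1 of its 4 libraries (adjusted p = 0.0599 to 0.0775).

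**Figure D2:**
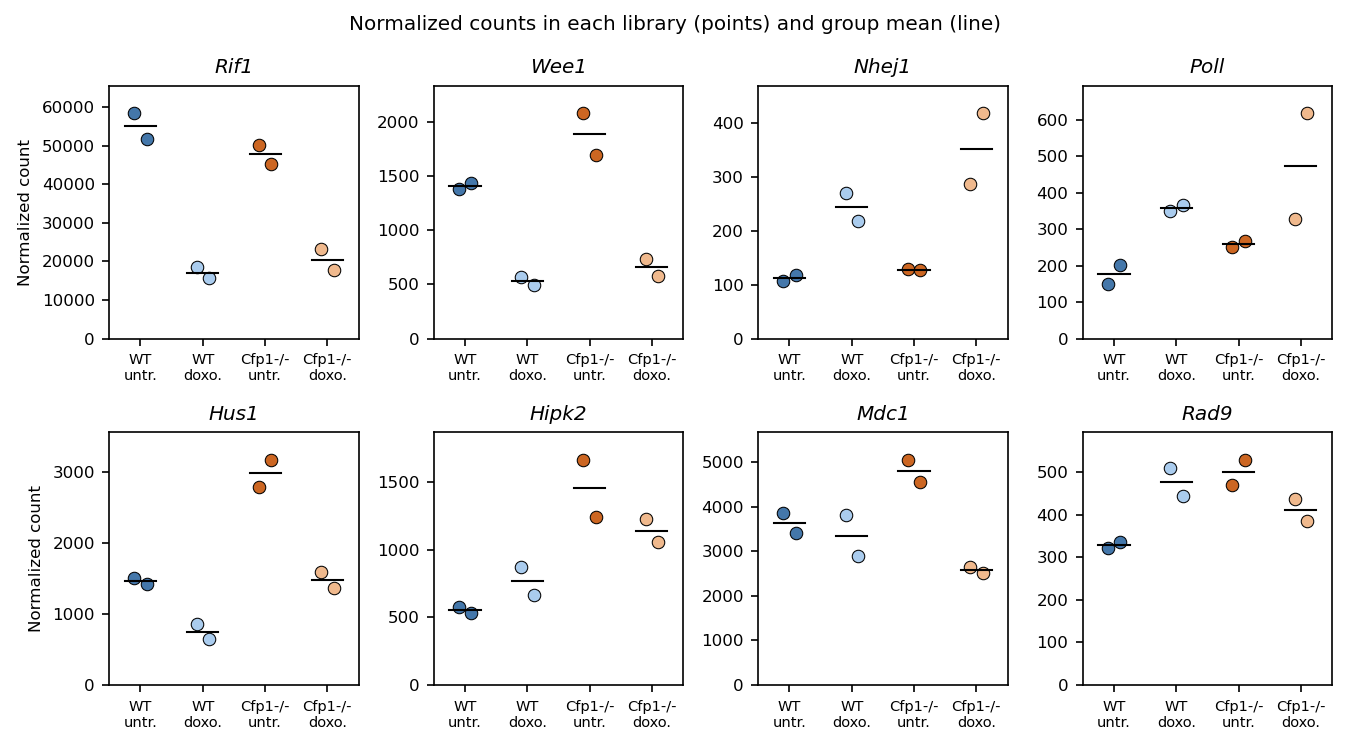
Normalized counts (y axis, from 0) of 8 genes in each of the 8 biological replicates, with 2 points per group and a line at the group mean. Rif1, Wee1 and Hus1 are lower and Nhej1 is higher in every treated library than in the untreated libraries of the same line, while Mdc1, Hipk2 and Rad9 are arranged differently in the 2 lines.

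In the ATR arm 5 of 10 genes fell in each line (50.0%, against 21.8% and 21.0% of all genes in WT and Cfp1-/- cells). Topbp1, Hus1, Rad17 and Tipin fell in both. The shares that rose were 10.0% and 0.0%, against 26.5% and 27.8%. Rad9 rose in WT cells, and no gene of the group rose in Cfp1-/- cells, where Rad1 alone had a positive value (0.21), which was not called. The median log2 fold changes of the group were -0.35 and -0.37. The 3 subunits of the ring needed to activate ATR are described first. Hus1 (chromosome 11, 8893140 to 8911194) held 1509 and 1431 normalized counts in untreated and 862 and 644 in treated WT libraries, and 2796 and 3180.1 against 1598 and 1364 in Cfp1-/- libraries. It fell in both, with log2 fold changes of -0.92 in WT (SE 0.168, adjusted p = 0.0016 from edgeR) and -0.97 in Cfp1-/- cells (SE 0.166, adjusted p = 0.00112). Rad9 (chromosome 19, 4195198 to 4201603) held 321 and 337 normalized counts in untreated and 509.6 and 445 in treated WT libraries, a log2 fold change of 0.58 (SE 0.174, adjusted p = 0.02). In Cfp1-/- libraries Rad9 held 471 and 529.9 untreated and 436 and 385 treated, where the treated libraries were the lower and the change of -0.24 was not called (adjusted p = 0.272). The difference between the responses of Rad9 was -0.83 with an adjusted p of 0.272 in edgeR, and -0.86 with an adjusted p of 0.21 without the affected run, in which Rad9 was counted. Rad1, the third subunit, held 1122 and 1139 and 1089.9 and 1031 in WT and 1102 and 1107 and 1274 and 1200.2 in Cfp1-/- libraries, and was not called in either line.

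Rad17, which loads the ring, fell with log2 fold changes of -0.91 and -0.72 (adjusted p = 0.000589 and 0.00224 from edgeR). Topbp1, the activator of ATR, went from 12068 and 11975 normalized counts to 7326 and 7100.0 in WT cells and from 8913 and 8239.8 to 6737 and 6242 in Cfp1-/- cells. Its log2 fold changes were -0.69 and -0.36 (adjusted p = 0.0011 and 0.0294 from edgeR). Atr itself held 4549 and 4293 in untreated and 2829 and 2322 normalized counts in treated WT libraries, and 3706 and 3311 against 3030.1 and 2817 in Cfp1-/- libraries. It fell in WT cells (-0.73, adjusted p = 0.00198 from edgeR), while the Cfp1-/- change of -0.22 was not called (adjusted p = 0.216), and the difference between the responses was not called. Atrip, the partner of Atr, had log2 fold changes of -0.17 and -0.39 and was not called. A share of 25.8% of its exon bases lies on exons of Trex1 on the same strand.

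Of the fork protection pair, Tipin held 7715 and 7694 normalized counts in untreated and 5195 and 5265 in treated WT libraries, and 4022 and 4675 against 3131 and 3055 in Cfp1-/- libraries. Every Cfp1-/- library of Tipin lay below every WT library, and its log2 fold changes were -0.51 and -0.45 (adjusted p = 0.00606 and 0.0117 from edgeR). Its partner Timeless held 3150.5 and 2818 and 2864 and 2209.7 in untreated and treated WT cells, which overlapped, and 2402 and 2503 and 1865 and 1694 in Cfp1-/- cells. The fall of Timeless was called in Cfp1-/- cells (-0.42, adjusted p = 0.042 from edgeR) and not in WT cells (-0.19, adjusted p = 0.326). Clspn, which carries the signal from ATR to Chek1, held 3048 and 3449.5 and 2723 and 2975 in WT and 2045 and 2055 and 1651 and 1688 in Cfp1-/- cells, and its log2 fold changes of -0.14 and -0.25 were not called. Without 1 library the Rad9 call was lost for treated replicate 1 or either untreated replicate of WT cells (adjusted p = 0.0697 to 0.107). In Cfp1-/- cells the calls were lost for Topbp1 without treated replicate 2 or untreated replicate 1 (0.143 and 0.117), for Tipin without treated or untreated replicate 2 (0.0642 and 0.0849), and for Timeless without any 1 of the 4 libraries (0.0663 to 0.199).

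Among the 7 checkpoint genes Wee1 and Chek1 fell in both lines, Cdc25a and Cdc25c fell in Cfp1-/- cells, and none rose. The share that fell was 28.6% in WT cells, near the 21.8% of all genes, and 57.1% in Cfp1-/- cells, against 21.0%. Of all genes 26.5% and 27.8% rose. Wee1, the kinase that holds back entry into mitosis (ENSMUSG00000031016, chromosome 7, 117265864 to 117285626), held 1388 and 1439.6 normalized counts in untreated and 572 and 498 in treated WT libraries. In Cfp1-/- libraries it held 2086 and 1698 untreated and 737 and 578 treated. Treated and untreated libraries lay far apart, with log2 fold changes of -1.36 (SE 0.176, adjusted p = 0.000218 from edgeR) and -1.48 (SE 0.175, adjusted p = 0.000131). Chek1, the effector kinase of ATR, fell with log2 fold changes of -0.56 (adjusted p = 0.0114 from edgeR) and -0.75 (adjusted p = 0.0026). Chek2, the effector kinase of ATM and the gene of this group that moved least, held 1479.7 and 1680.4 and 1491 and 1598 normalized counts in WT and 1278 and 1590.5 and 1553 and 1627 in Cfp1-/- libraries. Its treated and untreated libraries overlapped in both lines.

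The Cdc25 phosphatases differed among themselves. Cdc25a held 2966 and 3034 normalized counts in untreated and 2634 and 2829 in treated WT libraries, and 2152 and 2132 against 1676 and 1425 in Cfp1-/- libraries, where it fell with a log2 fold change of -0.42 (adjusted p = 0.0216 from edgeR). In WT cells its change was -0.09 (adjusted p = 0.595). Cdc25c had log2 fold changes of -0.46 in WT, with an adjusted p of 0.0628 and 0.0364 with the replicate block, and -0.82 in Cfp1-/- cells (adjusted p = 0.00512 from edgeR). Cdc25b had positive values in both lines, 0.40 and 0.41, neither of which was called. Hipk2, a kinase that phosphorylates p53 (chromosome 6, 38644389 to 38826189), held 579 and 532 normalized counts in untreated and 875 and 669 in treated WT libraries, and 1666 and 1239.8 against 1229.6 and 1054 in Cfp1-/- libraries. The treated libraries were the higher in WT cells (0.52, adjusted p = 0.0532 in edgeR and 0.00794 with the replicate block) and the lower in Cfp1-/- cells (-0.31, adjusted p = 0.22). The difference between these responses was -0.82 (SE 0.276, adjusted p = 0.323 in edgeR and 0.0646 with the block). Without 1 library the WT call of Chek1 was lost for treated replicate 1 or untreated replicate 2 (adjusted p = 0.0774 and 0.0556) and the Cfp1-/- call of Cdc25a for treated replicate 2 or either untreated replicate (0.0655 to 0.149). Calls were gained without 1 library for Cdc25c in WT (untreated replicate 2, 0.0205), Cdc25b in Cfp1-/- cells (untreated replicate 1, 0.0353) and Hipk2 in WT cells (treated WT replicate 2 or either untreated Cfp1-/- replicate, 0.0298 to 0.0441).

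Of the 9 end-joining genes 22.2% rose in each line, against 26.5% of all genes in WT and 27.8% in Cfp1-/- cells. Those that fell were 33.3% in WT cells, against 21.8%, and 22.2% in Cfp1-/- cells, against 21.0%. The genes of the ligase complex were split. Nhej1, a cofactor of the ligase that bridges broken ends (ENSMUSG00000026162, chromosome 1, 75013713 to 75093213), held 106 and 118 normalized counts in untreated and 269.8 and 218 in treated WT libraries, and 129 and 127 against 286 and 418 in Cfp1-/- libraries. All treated libraries lay above all untreated ones, and the log2 fold changes were 1.17 (SE 0.249, adjusted p = 0.00382 from edgeR) and 1.5 (SE 0.246, adjusted p = 0.000878). Xrcc4, the partner of Lig4, fell with log2 fold changes of -0.98 (adjusted p = 0.00391 from edgeR) and -0.83 (adjusted p = 0.00863), and Lig4 itself was not called (-0.23 and -0.08). Xrcc4 spans 315582 bases and is the longest of the 32 genes.

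Poll, a polymerase that fills gaps at the ends (chromosome 19, 45626765 to 45635021), held 150.3 and 202 normalized counts in untreated and 348 and 366 in treated WT libraries. In Cfp1-/- libraries it held 250.3 and 267 untreated and 328 and 618 treated, and the lower treated library is the one with the affected run, where Poll had 321 raw counts in the first technical replicate and 0 in the second. The log2 fold changes were 1.07 (SE 0.291, adjusted p = 0.0131 from edgeR) and 0.91 (SE 0.284, adjusted p = 0.0239), and the Cfp1-/- value was 1.16 without the affected run (adjusted p = 0.00123). Polm, the related polymerase and the lowest of the 32 in level per kilobase, had treated and untreated libraries that overlapped in both lines and log2 fold changes of 0.21 and 0.04 (SE 0.375 and 0.37).

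The Ku genes, which encode the ring that first binds a broken end, had lower values in treated cells. Xrcc5 held 5677 and 4515 normalized counts in untreated and 3427 and 3233 in treated WT libraries, and 5183 and 5372 against 3598 and 4015 in Cfp1-/- libraries, and fell with log2 fold changes of -0.57 and -0.43 (adjusted p = 0.00789 and 0.0282 from edgeR). Xrcc6 held 2767 and 2853 against 2054 and 1956 in WT and 1946 and 2412 against 1679 and 1944 in Cfp1-/- libraries, and fell in WT cells (-0.44, adjusted p = 0.0265 from edgeR) while its Cfp1-/- change of -0.22 was not called (adjusted p = 0.217). Prkdc, the kinase recruited by Ku, was not called (-0.22 and -0.20). The nuclease Dclre1c moved least of the group, with 516 and 458 and 482 and 422 normalized counts in WT and 575 and 537 and 472 and 542 in Cfp1-/- libraries, which overlapped. Without 1 library the WT calls were lost for Xrcc6 for any 1 of its 4 libraries (adjusted p = 0.0631 to 0.0989) and, without untreated replicate 1, for Xrcc5 and Poll (0.0876 and 0.0824). In Cfp1-/- cells they were lost for Xrcc5 for any 1 of the 4 libraries (0.0588 to 0.126), for Xrcc4 without treated replicate 1 or untreated replicate 2 (0.0667 and 0.071), and for Poll without treated replicate 2 or either untreated replicate (0.0832 to 0.287). Without treated replicate 2 the Poll value in Cfp1-/- cells was 0.39.

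Members with a high level in untreated cells had the lower fold changes, as did genes in general. Across the 32 genes level per kilobase and log2 fold change had a Spearman's rho of -0.60 in WT cells and -0.62 in Cfp1-/- cells, and across all tested genes with a known exon length (n = 15752) it was -0.58 and -0.57. Genes are not independent replicates, and untreated counts enter both quantities. With gene span rho was -0.35 and -0.07 over the members, against -0.02 and 0.06 over all 15758 genes.

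**Figure D3:**
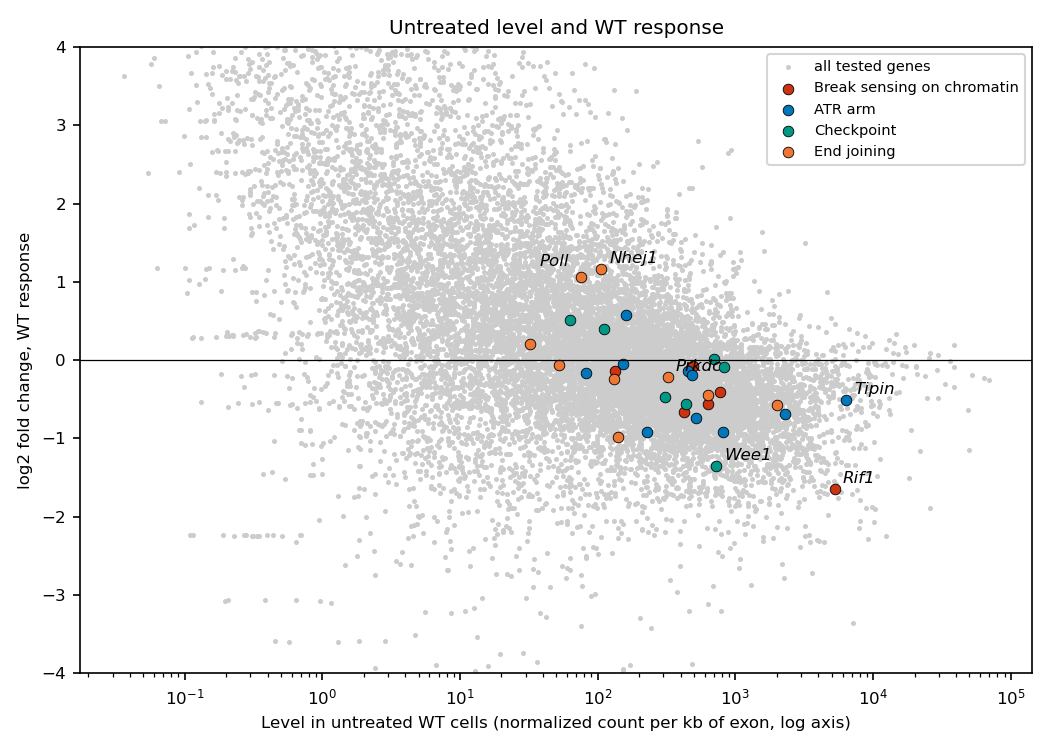
Log2 fold change of WT cells (y axis, from -4 to 4) against the level in untreated WT cells (x axis, log scale, normalized counts per kilobase of exon) for all tested genes in grey and the 32 members coloured by role. Tipin and Rif1 lie at the high end of the members, and Nhej1 and Poll are among the low ones, with Hipk2, Dclre1c and Polm lower still. Genes outside the y range or at 0 counts in untreated WT cells are not drawn.

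The untreated lines already differed for 9 of the 32 genes, of which 3 were higher and 6 lower in Cfp1-/- than in WT cells, against 17.9% higher and 16.1% lower of all genes. With doxorubicin 2 were higher and 6 lower, against 15.1% and 10.8%. Lower in Cfp1-/- cells under both conditions were Tipin (-0.80 and -0.73 on the log2 scale), Clspn (-0.64 and -0.75), Rnf168 (-0.62 and -0.58), Trp53bp1 (-0.84 and -0.41) and Cdc25a (-0.46 and -0.79). Adjusted p-values from edgeR ran from 0.00129 for untreated Tipin to 0.0427 for treated Trp53bp1. Topbp1 was lower in untreated cells (-0.46, adjusted p = 0.0149 from edgeR) and Timeless in treated cells (-0.49, adjusted p = 0.0406).

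Hipk2 had the largest difference between the untreated lines, 1.42 on the log2 scale (SE 0.198, adjusted p = 0.000912 from edgeR), and 0.59 with doxorubicin (adjusted p = 0.0514, and 0.0054 with the replicate block). Hus1 was higher by 1.05 and 1.00 (SE 0.166 and 0.168, adjusted p = 0.0016 and 0.00327 from edgeR). It lies on chromosome 11, where the median over all tested genes was also higher in Cfp1-/- cells, by 0.51 in both conditions, as it was on chromosome 7, which carries Wee1, by 0.53 and 0.47. The part of these shifts in the gene values was not tested. Wee1 was higher by 0.45 in untreated cells (adjusted p = 0.0671 in edgeR and 0.0225 with the block) and Polm, also on chromosome 11, by 0.26 (adjusted p = 0.615). Rad9 was higher by 0.63 in untreated cells (adjusted p = 0.0193 from edgeR), with a chromosome 19 median of 0.29, and Atm by 0.48 in treated cells (adjusted p = 0.0126).

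No end-joining gene was called between the lines in edgeR's test in either condition. Of all genes 17.9% were higher and 16.1% lower untreated, and 15.1% and 10.8% with doxorubicin. The replicate block moved the count in untreated cells from 9 to 15 of 32, adding Atm (adjusted p = 0.0464 from edgeR with the block), Mdc1 (0.0102), Atr (0.041), Wee1 (0.0225), Xrcc6 (0.0416) and Poll (0.0471), where the log2 differences were 0.28, 0.43, -0.30, 0.45, -0.34 and 0.58. In treated cells it added Mdc1 (-0.35, adjusted p = 0.0408) and Hipk2. Scaling by total counts raised the median of all genes by 0.19 in untreated and 0.09 in treated cells and gave 7 higher and 4 lower, and 3 higher and 4 lower. First technical replicates alone gave 7 higher and 6 lower in untreated cells. Without the affected run the counts were 5 higher and 6 lower in untreated cells. In treated cells they were 3 higher and 6 lower, with Poll added (0.67, adjusted p = 0.0318 from edgeR). The shares of all genes under these alternatives are not given, so the counts describe how calls moved and not an excess.

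Several of these calls between the lines were lost when 1 library was left out, which leaves a lone library in its group. Over these fits the log2 difference ran from -0.46 to -0.44 for untreated Cdc25a and from 0.45 to 0.50 for treated Atm. For treated Trp53bp1 it ran from -0.52 to -0.31 and for treated Timeless from -0.66 to -0.29. In untreated cells, without 1 library, Topbp1 was lost for Cfp1-/- replicate 2 or either WT replicate (adjusted p = 0.0709 to 0.0899), Rad9 for the same libraries (0.074 to 0.0987) and Cdc25a for any of the 4 (0.0794 to 0.0988). In treated cells Atm was lost for replicate 2 of either line (0.063 and 0.0678), Rnf168 for Cfp1-/- replicate 2 (0.0747), Trp53bp1 for any of the 4 or untreated Cfp1-/- replicate 1 (0.0502 to 0.185) and Timeless for either Cfp1-/- replicate of either treatment or treated WT replicate 1 (0.0566 to 0.222). Gained without 1 library were Mdc1 in untreated cells (either treated WT replicate, 0.0316 and 0.0318) and Hipk2 in treated cells (treated WT replicate 1 or either untreated Cfp1-/- replicate, 0.0412 to 0.0461).

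**Figure D4:**
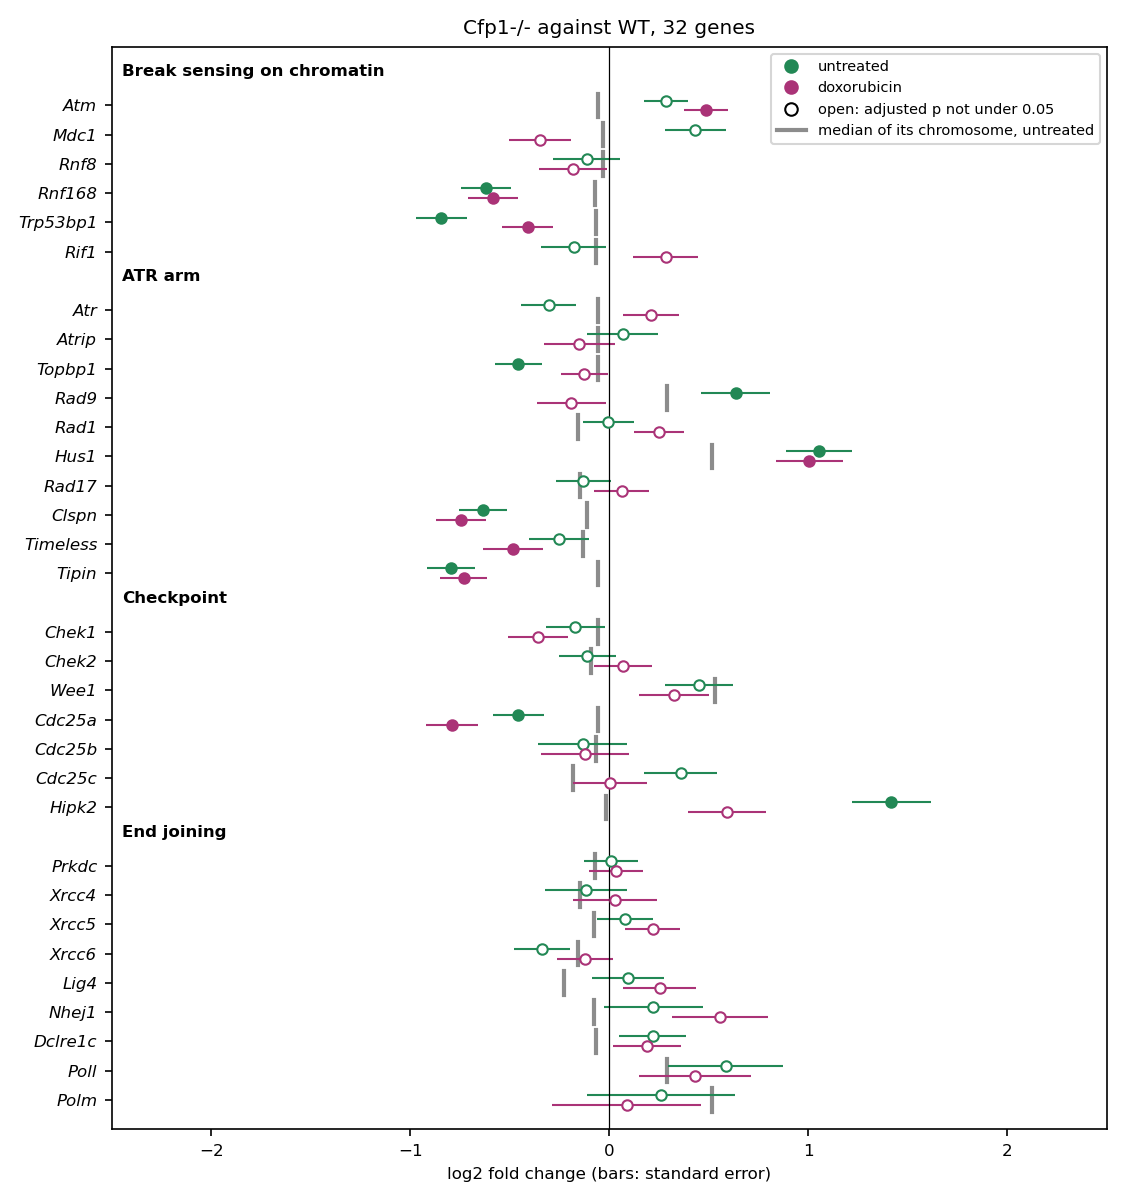
Log2 difference between Cfp1-/- and WT cells (x axis) for the 32 genes (y axis, by role), untreated in green and with doxorubicin in purple, with standard errors as bars, filled where the adjusted p is under 0.05. Grey ticks mark the median of all tested genes on the same chromosome in untreated cells, and Hus1 lies right of a tick that is itself at 0.51.

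Genes of the same pathways outside the 32 were counted by list, and each count is to be read against the 21.8% lower and 26.5% higher of all genes in WT cells and the 21.0% and 27.8% in Cfp1-/- cells. Of 16 tested partners of the ATM arm, 5 fell and 3 rose in WT cells (31.2% and 18.8%) and 7 fell and 4 rose in Cfp1-/- cells (43.8% and 25%), while Tti2 and Babam1 were not found under these symbols. H2afx, which encodes the histone marked at breaks, fell in WT and Cfp1-/- cells with log2 fold changes of -1.41 and -1.44, and Ppm1d, the phosphatase that ends the signal and a p53 target, rose with values of 1.51 and 1.33. Rnf169, which competes with Trp53bp1 for ubiquitylated chromatin, rose with values of 1.53 and 1.07. Of 13 ATR arm partners, 6 fell and none rose in WT cells (46.2% and 0%), and 5 fell and 1 rose in Cfp1-/- cells (38.5% and 7.69%). Etaa1, an activator of ATR apart from Topbp1, fell with values of -1.29 and -0.93, as did Rfc4, a clamp loader subunit (-0.70 and -0.80), and Rpa2, of the single-strand binding complex (-0.56 and -0.79).

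Of 15 checkpoint partners, 9 fell and 2 rose in WT cells (60% and 13.3%), and 8 fell and 3 rose in Cfp1-/- cells (53.3% and 20.0%). Plk1, the kinase that triggers mitosis, fell with log2 fold changes of -1.87 and -1.90, as did the mitotic kinase Aurka (-1.23 and -1.77) and the mitotic cyclin Ccnb1 (-1.37 and -1.11). Of 15 end-joining partners, 2 fell and 4 rose in WT cells (13.3% and 26.7%), and 3 fell and 3 rose in Cfp1-/- cells (20.0% and 20.0%), close to or below the shares of all genes. Fam35a, a shieldin subunit, rose with values of 0.88 and 1.46, and Parp2, an enzyme that marks breaks with ADP-ribose, fell with values of -1.09 and -0.83. Dntt, the polymerase of lymphocyte end joining, had 0 counts in both untreated WT libraries and 10.5 and 16.9 normalized counts in the treated ones, so no fold is given, and in Cfp1-/- cells it went from 1.85 and 3.38 to 27.6 and 46.3.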

How the data were processed

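RNA of 16 deposited samples was analysed, which are 4 groups of 2 biological replicates with 2 technical replicates each, assigned from their own labels. The authors aligned strand-specific reads to NCBIm37 with STAR (version 2.2.1 per the labels) and counted them on Ensembl exons with HTSeq-count. They deposited raw counts per technical replicate and normalized counts per biological replicate, a signal equal to the summed counts divided by DESeq size factors. Union counting leaves out reads on overlapping exons of the same strand.

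Technical replicates were summed. Counts of 15758 of 22375 genes passed filterByExpr and were fitted with edgeR 4.0.16 (R 4.3.3, TMM, glmQLFTest, 1 coefficient per group, Benjamini-Hochberg adjustment over all tested genes, limit 0.05). Standard errors derive from the test statistic. The common dispersion was 0.0304 with 5.62 prior degrees of freedom. With 2 libraries against 2, the smallest two-sided exact permutation p is 0.333, so no such test was used. The labels call the replicates biological but not whether they were separate cultures, so p-values measure the spread between these samples alone. Totals of 14880589 to 29422711 counts put genes with 3 counts or fewer per library at the floor.

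The members and lists were chosen with earlier results of these data known. Values in every library are given for members called the same way in both lines with an absolute log2 fold change of at least 1, members called between lines or between responses by edgeR, edgeR with a block or DESeq2, and, per role group, the member with the highest level per kilobase and the one that moved least. Of each partner list the 3 with the largest mean change among those called in both lines are named. Same-numbered biological replicates deviated together, with correlations of 0.14 to 0.451 for the 6 pairs of groups, all over 0.1. No source states what they share. The main edgeR fit left this pairing out, and the replicate block took it into account as an alternative. Alternatives were DESeq2 1.42.0, its size factors, total count scaling, no filter, the replicate block, groups compared alone, first technical replicates, a fold limit of 2 and each replicate left out. Fits without the affected run were added after seeing the data. The scripts were tested on simulated data. Promoters come from RefSeq (GRCm38.p6), and gene positions in the tables are NCBIm37.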

Additional observations from a re-analysis of the deposited data

Results flagged for a closer look

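A set of 4 genes was flagged, Mdc1 for the size and Rad9, Rad1 and Hipk2 for the direction of their responses in the 2 lines. Mdc1 had a response lower in Cfp1-/- than in WT cells by a log2 difference of -0.78, with an adjusted p of 0.244 in edgeR's interaction test and 0.0421 under the replicate block. For Rad9, Rad1 and Hipk2 both treated libraries lay outside the untreated range in opposite directions in the 2 lines. How many of all tested genes have this order was not counted, so it is not read as a trait of these 3. Rad1 changed by only -0.05 in WT and 0.21 in Cfp1-/- cells on the log2 scale, neither of which was called. The log2 differences were -0.83 for Rad9, 0.25 for Rad1 and -0.82 for Hipk2, and edgeR's interaction test gave adjusted p-values of 0.272, 0.675 and 0.323, so none of these 3 passed. Hipk2 passed once the block was used and the affected run was left out.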

How the results depend on the processing

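No result changed sign where it was called, in any alternative run. The count of members called in the response difference was 0 in edgeR and went to 1 with the replicate block (Mdc1) and 2 when the affected run was also left out (Mdc1 and Hipk2). The count of Cfp1-/- against WT untreated went from 9 to 15 with the block, with and without the affected run, and the 9 genes remained among them. With the block, calls changed only for the genes named with a blocked value in the results. With the affected run also left out, the Cfp1-/- falls of Clspn and Hipk2 were called too (adjusted p = 0.0334 and 0.0386 from edgeR). Leaving out each replicate in turn, the count in the Cfp1-/- response of 17 ran from 9 (without treated or untreated replicate 2 of Cfp1-/- cells) to 17 and was 11 without untreated replicate 1. The count of 8 in Cfp1-/- against WT with doxorubicin ran from 4, without treated Cfp1-/- replicate 2, to 8. In the WT response of 17 it ran from 12 to 18. A lone library left in a group is assumed to vary like the others. Total count scaling kept 11 of the 17 WT calls and 10 of the 17 Cfp1-/- calls. It also ended the calls between the lines of Topbp1 and Cdc25a in untreated and of Trp53bp1 and Timeless in treated cells, and fits on the groups compared alone ended those of Atm, Rnf168 and Topbp1 in the Cfp1-/- response and of Trp53bp1 and Timeless between the treated lines. First technical replicates alone ended the calls of Xrcc6 in WT and Xrcc5 in Cfp1-/- cells. The cause was not tested, and the shares of all genes called under these alternatives are not given. At a fold limit of 2 the members called by fold and level went from 2 to 3 in each line. DESeq2, its size factors, no filter and first technical replicates kept every count of calls within 1.5 times. Polm, Nhej1 and Poll had the lowest normalized counts in untreated WT cells and the largest standard errors of the 32.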
